A study of Mus musculus with 8 samples.

Results

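In NIH3T3, an established fibroblast line from mouse embryos, 208 genes had an mRNA signal that was higher after 30 min of serum, and 49 of them stayed near that signal or were above it when the cells had also received cordycepin. These genes were selected on their measured values. A probe for a RefSeq mRNA (an accession starting NM_) was chosen when it was well above background on all 3 arrays with serum and all 3 arrays with cordycepin and serum, when its mean log2 signal was at least 0.8 higher with serum than without, and when the mean with cordycepin and serum minus the mean with serum was above -0.3. Every log2 signal is given after subtraction of its own array's 75th percentile. The rule was met by 52 probes for 49 genes, of 208 serum-raised genes (23.6%) and 12572 mRNA genes above background on those 6 arrays. Both differences were used to choose the genes, and the difference between cordycepin with serum and no serum is their sum, so all 3 are given as descriptions with no test.

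All cells were starved for 24 h in DMEM with 0.5% newborn bovine serum after growth in 10% serum. In the serum group, 3 samples received 0.1% DMSO, the solvent, and after a further 60 min newborn bovine serum at 0.1 volume, for 30 min. In the cordycepin group, 3 samples received 20 µM cordycepin in DMSO in place of DMSO alone and then the same serum, which gave 90 min of cordycepin in all by the labels; the legend of the study puts the serum after that time. The group without serum held 2 samples, starved in the same way, whose own label does not say whether they received DMSO. No array held cells given cordycepin without serum. The design names independent samples in triplicate, of which the group without serum has 2 here, and the spread between them is the only error measured here.

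Serum growth factors act on quiescent fibroblasts through receptor tyrosine kinases, the MAP kinase ERK and small GTPases. These switch on serum response factor (SRF) with its ternary complex and myocardin-related (MRTF) partners, and NF-kB, and so start the transcription of immediate early genes without new protein. Cordycepin (3′-deoxyadenosine) is an adenosine that lacks the sugar's 3′ hydroxyl, so an RNA chain that takes it up cannot be extended, and its triphosphate stops the growth of poly(A) tails in cell-free reactions.

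The cells carried fibroblast mRNA in every group. Of 14 fibroblast markers, 13 (among them the collagens Col1a1, Col1a2 and Col3a1) were well above background on all 8 arrays. The log2 of the summed linear signal of the list was 11.27 to 11.40 without serum, 11.41 to 11.58 with serum and 11.48 to 11.75 with cordycepin. Of 17 markers of other cell types, 4 were above background on all 8 arrays and 6 on none. The log2 of their summed linear signal was 0.33 to 0.46, 0.25 to 0.75 and 0.42 to 0.77 in the same groups. The 75th percentile itself lay between a signal of 350.5 and 802.2, and the share of probes well above background was 51.1% to 57.1%. The 8 arrays shared 1 slide and 1 scan, and their number limits the precision. In RNA from whole cultures, fewer cells that carry an mRNA and less of it per cell cannot be told apart.

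The genes did not form a uniform group. For 17 of the 49 genes the cordycepin difference stayed between -0.3 and 0.3 on every probe that met the rule. For 32 it was above 0.3, beside 1957 of the 12572 mRNA genes above background (63.5% and 12.7% of probes). In 19 genes it was above 1, beside 322 of the 12572, and the highest was 3.49. The rule left out differences at or below -0.3, which raises these shares among the 49. These are differences of means. In some of the 32, among them Fgfr4 (0.31, SE 0.38), the cordycepin and serum arrays overlapped. The median over the 52 probes was 1.13 for serum minus no serum and 0.64 for cordycepin minus serum, beside -0.02 and 0.10 over all probes tested.

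**Figure D1:**
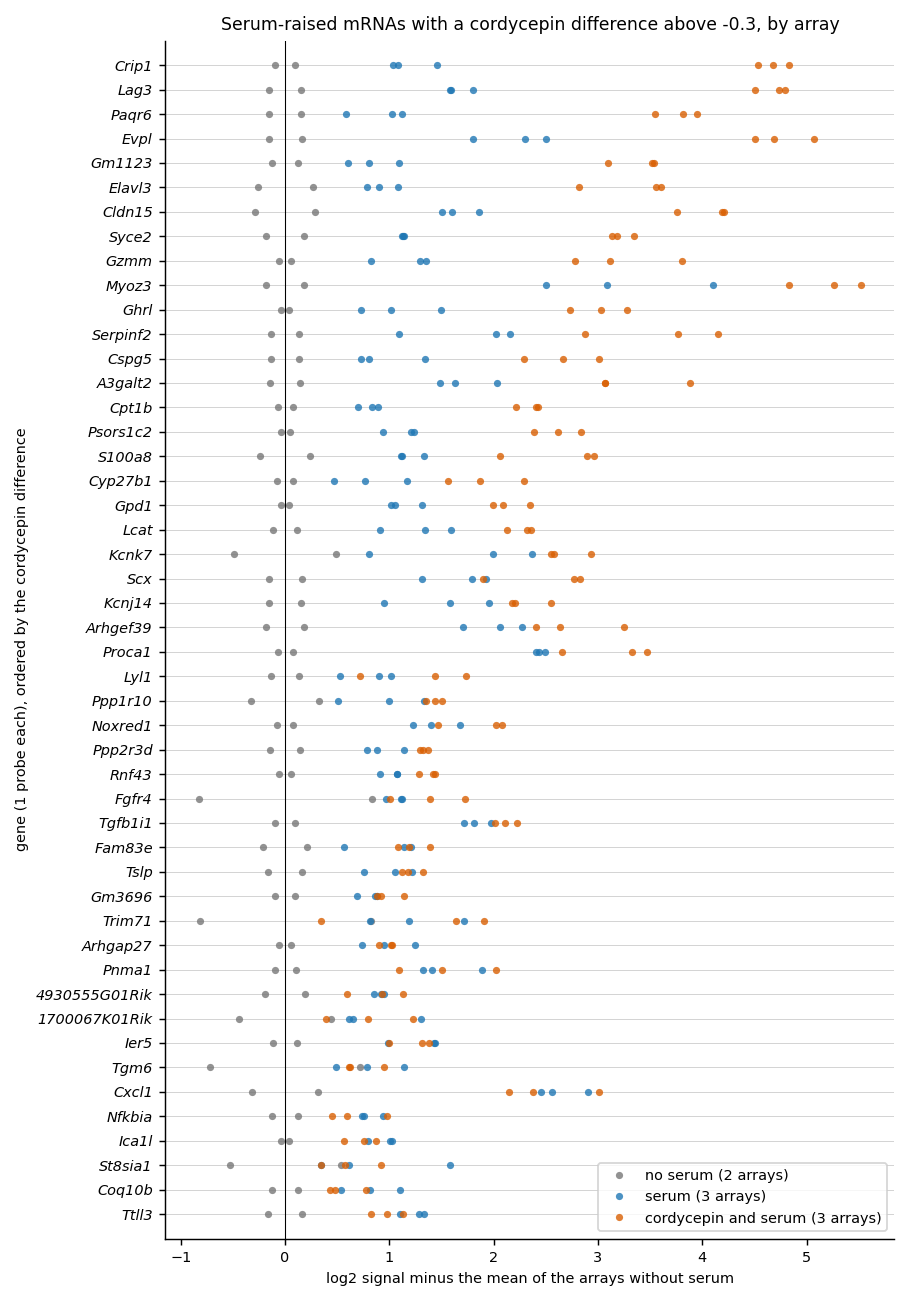
Log2 signal of each array minus the mean of the arrays without serum, for 1 probe (the brightest that met the rule) of each of 48 of the 49 genes. Grey points are the 2 arrays without serum, blue points the 3 with serum and orange points the 3 with cordycepin and serum. Orange points sit to the right of all blue points of the gene from Crip1 down to Kcnk7, and overlap them from Fam83e down to Ttll3, except in Gm3696.

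By limma with Benjamini-Hochberg adjustment over all probes tested, 29 of the 49 genes were called higher with serum, where 1.14% of all probes were. For cordycepin with serum against serum, 22 genes were called, all of them higher, where 19.4% of all probes were called in either direction and 12.0% higher. Against no serum, 43 genes were called higher with cordycepin and serum, where 9.16% of all probes were. In 46 genes all serum arrays lay above both arrays without serum (9.71% of all probes), and in 30 genes all cordycepin arrays lay above all serum arrays (26.5% of all probes). The rule used these contrasts, and nothing is read from the counts. The call for serum rested on few arrays: 29 genes became 9 without replicate 1 of the no serum group, 10 without its replicate 2 and 18 without replicate 1 of the serum group.

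The genes differed from the other serum-raised mRNAs in signal. The mean log2 signal with serum was below 0, the 75th percentile of the array, in 45 of the 52 probes (86.5%), in 47 of the 173 other serum-raised probes (27.2%) and in 39.5% of all mRNA probes above background. Among serum-raised probes with a mean below -2, 34 of 49 met the rule (69.4%). This share was 25.6% (11 of 43) from -2 to 0, 8.82% (3 of 34) from 0 to 2, and 4.04% (4 of 99) above 2. By size of the serum rise, 19 of 71 probes met the rule between 0.8 and 1 (26.8%), 18 of 76 between 1 and 1.5 (23.7%), 9 of 35 between 1.5 and 2 (25.7%) and 6 of 43 above 2 (14.0%). The mean with serum enters both differences of the rule, so these shares are not independent of it. The mean over all 8 arrays, which also holds the arrays of the rule, had a median of -2.61 for the 52 probes. It was 1.39 for the other serum-raised probes and 0.86 for all mRNA probes above background. Without serum, 39 of the 52 probes were well above background on both arrays, 9 on 1 array and 4 on neither. A probe's signal also depends on its own sequence, so these are shares of probes by signal and not by the amount of mRNA. The part of low signal in these differences was not tested. When background was instead modelled by normexp, which draws weak signals together, 17 genes met the rule, of which 16 were among the 49.

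**Figure D2:**
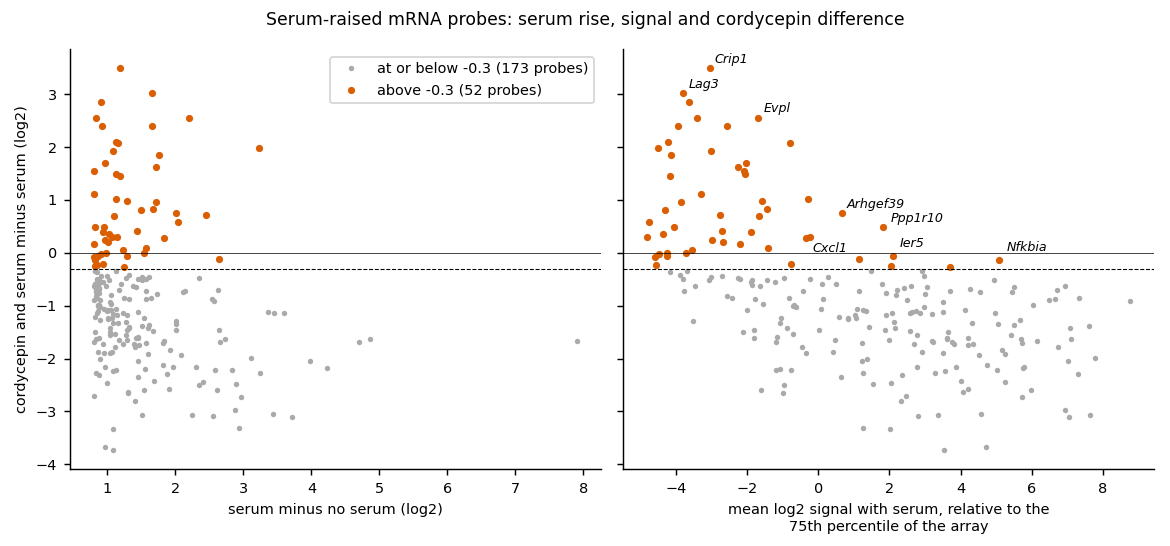
Cordycepin with serum minus serum (log2, vertical) of the 225 serum-raised mRNA probes against their serum rise (log2, left) and their mean log2 signal with serum relative to the 75th percentile of the array (right). Orange points are the 52 probes above the dashed line at -0.3 that met the rule, and grey points the 173 others. On the right, orange points crowd at signals below 0, with 4 of 99 probes above a signal of 2.

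Among genes of NF-kB signalling and cytokines was Nfkbia, which encodes IκBα, the inhibitor that holds NF-kB in the cytoplasm and is itself an NF-kB target. Its log2 signal was 4.15 and 4.40 without serum, 5.21, 5.01 and 5.03 with serum, and 5.25, 4.87 and 4.72 with cordycepin and serum. Every serum array lay above both arrays without serum, and the cordycepin arrays lay around the serum arrays. The serum difference was 0.81 ± 0.18 (± SE from the limma fit, 2 arrays without serum and 3 in each other group), or 1.75-fold, just inside the threshold, and the cordycepin difference was -0.13 ± 0.16. Nfkbia did not meet the rule with normexp, quantile normalisation or centring on spike-in probes. It met the rule in 6 of the 8 settings that left out 1 array. Cxcl1, a chemokine that draws neutrophils, had the highest serum rise among the genes above background on all 8 arrays. Its probe (chr5:91321845-91321904 in mm9; exon or intron was not determined) read -1.16 and -1.80 without serum, 1.07, 0.97 and 1.42 with serum, and 0.89, 0.66 and 1.53 with cordycepin and serum. The serum and cordycepin arrays overlapped fully, both far above the arrays without serum, with differences of 2.64 ± 0.29 and -0.13 ± 0.26. Tslp, a cytokine of epithelial and stromal cells, was 1.01 higher with serum and a further 0.20 with cordycepin, at a low signal.

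The promoters of Nfkbia and Cxcl1 are shown because both hold the letters of an NF-kB site on each strand. They are the 250 bases before the start in RefSeq (GRCm38.p6), and capitals mark every match to the motifs searched, which are given further on.
Nfkbia (chr12:55492648-55492897, minus strand): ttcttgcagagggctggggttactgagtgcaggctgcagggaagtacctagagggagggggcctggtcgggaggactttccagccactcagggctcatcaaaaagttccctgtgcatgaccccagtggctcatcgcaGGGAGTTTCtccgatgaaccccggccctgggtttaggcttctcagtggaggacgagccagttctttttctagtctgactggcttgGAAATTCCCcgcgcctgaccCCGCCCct
Cxcl1 (chr5:90890995-90891244, plus strand): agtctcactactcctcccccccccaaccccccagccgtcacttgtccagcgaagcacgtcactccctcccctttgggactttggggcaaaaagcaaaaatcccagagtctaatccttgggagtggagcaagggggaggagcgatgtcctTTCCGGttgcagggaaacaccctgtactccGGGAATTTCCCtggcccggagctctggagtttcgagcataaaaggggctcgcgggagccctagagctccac

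Genes that act in the nucleus or on RNA came next. Ier5, an immediate early gene that works with protein phosphatase PP2A and heat shock factor, was measured by a probe at chr1:156943530-156943589, with log2 signals of 0.70 and 0.92 without serum, 2.23, 2.25 and 1.80 with serum, and 2.12, 2.19 and 1.80 with cordycepin and serum. Its serum arrays all lay above the arrays without serum and its cordycepin arrays lay within their range, with differences of 1.29 ± 0.19 and -0.06 ± 0.17. A second Ier5 probe behaved otherwise, as described with the other probes. Ppp1r10 (PNUTS), a subunit that brings protein phosphatase PP1 to chromatin and RNA polymerase, read 0.55 and 1.21 without serum, 1.87, 2.21 and 1.39 with serum, and 2.38, 2.23 and 2.31 with cordycepin and serum. All 3 cordycepin arrays were above the serum arrays, though by little over the highest of them, and the differences were 0.95 ± 0.26 and 0.48 ± 0.24. Scx (scleraxis), a transcription factor of tendon cells, was 1.68 higher with serum and a further 0.82 with cordycepin. Lyl1, a transcription factor of blood stem cells, stood at 0.81 and 0.49. Trim71, an RNA-binding ubiquitin ligase of embryonic cells, had differences of 1.24 ± 0.58 and 0.06 ± 0.52, but 1 array without serum (-3.97) lay above the lowest serum array (-3.98). Elavl3, a neuronal RNA-binding protein, was 0.92 higher with serum and 2.40 higher again with cordycepin.

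Several genes belonged to the cytoskeleton or to signalling from the membrane. Arhgef39 encodes an exchange factor for small GTPases. Its probe at chr4:43509018-43509077 read -1.54 and -1.17 without serum, 0.92, 0.71 and 0.35 with serum, and 1.90, 1.28 and 1.05 with cordycepin and serum. The 3 groups did not overlap, and the differences were 2.01 ± 0.27 and 0.76 ± 0.24. Tgfb1i1 (Hic-5), a focal adhesion adaptor and a known SRF target, read -2.08 and -2.27 without serum, -0.36, -0.45 and -0.20 with serum, and -0.06, -0.16 and 0.05 with cordycepin and serum. Its groups also kept apart, at 1.84 ± 0.13 and 0.28 ± 0.12. A second and brighter Tgfb1i1 probe (mean with serum 3.06, against -0.34 here) did not rise with serum, as described with the other probes. Arhgap27, a GTPase-activating protein, was 0.98 higher with serum, with a cordycepin difference of 0.00.

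Ttll3, an enzyme that adds glycine to tubulin, was the only gene with 3 probes that met the rule. The brightest, at chr6:113364499-113364558, read 2.62 and 2.30 without serum, 3.79, 3.56 and 3.75 with serum, and 3.59, 3.44 and 3.28 with cordycepin and serum. Its cordycepin arrays lay below the mean of the serum arrays and above both arrays without serum. This probe did not meet the rule with normexp, quantile normalisation or centring on spike-in probes, while the other Ttll3 probes met it with each. From the first to the last probe along the gene, the serum differences were 1.56, 1.14 and 1.24, and the cordycepin differences were 0.09, 0.30 and -0.26.

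Among receptors, their regulators and channels, Rnf43, a ubiquitin ligase that removes Wnt receptors, stood at 1.02 and 0.36, and Fgfr4, a fibroblast growth factor receptor, at 1.07 and 0.31. Ppp2r3d, a regulatory subunit of protein phosphatase PP2A, had 0.93 and 0.40. The potassium channel genes Kcnk7 and Kcnj14 were 1.72 and 1.49 higher with serum, and 0.97 and 0.82 higher again with cordycepin. Kcnk7, Fgfr4 and Rnf43 were well above background on 1 of the 2 arrays without serum, where Fgfr4 read -6.71 and -5.05, so their serum differences are rough. Kcnj14 was not well above background on either array without serum, which makes its serum rise at least 2.35-fold, against the lowest signal well above background on each array. Its probe lies on chromosome 1 in mm9 although RefSeq puts the gene on chromosome 7, and what it detected is uncertain.

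The highest cordycepin difference was that of Crip1, a small LIM-domain protein of gut and immune cells. Its probe at chr12:114392029-114392088 read -4.34 and -4.16 without serum, -2.80, -3.17 and -3.21 with serum, and 0.58, 0.43 and 0.28 with cordycepin and serum. The groups lay wide apart, with a serum difference of 1.19 ± 0.17 and a cordycepin difference of 3.49 ± 0.15, or 11.2-fold. Lag3, an inhibitory receptor of T cells, read -5.31 and -5.62 without serum, -3.67, -3.88 and -3.88 with serum, and -0.67, -0.73 and -0.96 with cordycepin and serum. Its differences were 1.66 ± 0.15 and 3.02 ± 0.14, and 1 of its 2 arrays without serum was well above background. Paqr6, a membrane progestin receptor, had 0.91 ± 0.20 and 2.86 ± 0.18. Gm1123, a predicted gene, had 0.83 ± 0.20 and 2.55 ± 0.18. With normexp background correction Crip1, Lag3, Paqr6 and Gm1123 did not meet the rule. Of the other genes with the largest cordycepin differences, Elavl3 and Syce2 did not meet it then either, while Evpl and Cldn15 did.

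The promoter of Crip1 is shown as that of the gene with the highest cordycepin difference, and that of Ier5 as that of an immediate early gene, both again for 250 bases of GRCm38.p6 with matches in capitals.
Crip1 (chr12:113151762-113152011, plus strand): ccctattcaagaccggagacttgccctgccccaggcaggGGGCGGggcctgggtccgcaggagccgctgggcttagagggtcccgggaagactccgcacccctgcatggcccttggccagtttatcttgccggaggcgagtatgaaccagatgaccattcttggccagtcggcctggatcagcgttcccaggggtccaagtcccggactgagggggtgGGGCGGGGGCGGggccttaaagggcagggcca
Ier5 (chr1:155099637-155099886, minus strand): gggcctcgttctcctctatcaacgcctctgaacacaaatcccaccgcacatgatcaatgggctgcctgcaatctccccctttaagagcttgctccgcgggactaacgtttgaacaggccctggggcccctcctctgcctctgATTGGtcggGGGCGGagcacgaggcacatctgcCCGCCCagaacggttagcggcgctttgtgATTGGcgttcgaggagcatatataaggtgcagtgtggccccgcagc

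Evpl (envoplakin), a protein of the cornified envelope of the skin, was among the highest in both differences. It read -3.74 and -4.06 without serum, -1.40, -1.60 and -2.10 with serum, and 0.79, 1.18 and 0.61 with cordycepin and serum. No group overlapped another, and serum and cordycepin added 2.20 ± 0.24 and 2.56 ± 0.22. Cldn15, a tight junction claudin of the gut, showed the same order at 1.66 ± 0.22 and 2.40 ± 0.20. Psors1c2, a gene of the skin, stood at 1.13 and 1.49, and Fam83e at 0.97 and 0.25. Gzmm, a granule protease of natural killer cells, and S100a8, a calcium-binding protein of neutrophils, were 1.15 and 1.19 higher with serum and 2.08 and 1.45 higher again with cordycepin. Of the 17 markers of other cell types, Adipoq (adipocytes), Rbfox3 (neurons) and Epcam (epithelia) had cordycepin differences of 2.50, 1.91 and 0.77 and were above background on 3, 3 and 1 of 8 arrays. Ptprc, of leukocytes, stood at -0.11 on 3 arrays, Cd3e, of T cells, at 0.13 on all 8, and Cdh1, of epithelia, was above background on none. The part of such cells in these values was not tested.

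Genes known from neurons, besides Elavl3, differed among themselves. Pnma1, a neuronal antigen, was 1.54 higher with serum and 0.00 with cordycepin. Cspg5, a neural proteoglycan, stood at 0.96 and 1.70, and Ica1l, a relative of an islet cell antigen, at 0.94 and -0.21. Myoz3, a protein of the muscle Z-disc, was not well above background on either array without serum. Its serum rise was at least 2.22-fold, and its cordycepin difference was 1.98 ± 0.38. Syce2, of the synaptonemal complex of meiosis, had 1.13 and 2.09. Like Syce2, the probes of St8sia1, Tgm6, 4930555G01Rik and 1700067K01Rik were well above background on 1 of the 2 arrays without serum.

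Serpinf2 (α2-antiplasmin), the plasmin inhibitor made by the liver, was not well above background without serum. Its rise was at least 2.83-fold with serum and at least 10.2-fold with cordycepin and serum, both against no serum. Ghrl (ghrelin), a stomach hormone, stood at 1.08 and 1.93. Lcat, the plasma enzyme that esterifies cholesterol, had 1.28 and 0.99, and Gpd1, a glycerol phosphate dehydrogenase, 1.13 and 1.02. Cpt1b, the muscle enzyme that brings fatty acids into mitochondria, had 0.81 and 1.54, and Cyp27b1, which activates vitamin D, 0.80 and 1.10. A3galt2, a glycosyltransferase with 2 probes that met the rule, had 1.71 and 1.63 on the brighter one. For the dimmer one, which neither array without serum held well above background, the serum rise was at least 1.83-fold.

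Of the remaining genes, several stayed near their serum level. Coq10b, a mitochondrial protein that binds coenzyme Q, read 1.11 and 1.36 without serum, 2.05, 2.34 and 1.77 with serum, and 2.01, 1.72 and 1.67 with cordycepin and serum, so that the cordycepin arrays overlapped the serum arrays and stayed above those without serum. Its probe lies on chromosome 8 in mm9, while RefSeq puts the gene on chromosome 1. St8sia1 (GD3 synthase) and Tgm6 (a transglutaminase) had cordycepin differences of -0.23 ± 0.37 and -0.07 ± 0.34, and in both an array without serum lay above a serum array. Noxred1, a putative oxidoreductase, stood at 1.43 and 0.42, and Proca1, a cyclin-binding protein, at 2.44 ± 0.23 and 0.71 ± 0.20. The RIKEN genes 4930555G01Rik and 1700067K01Rik had -0.02 and -0.05 with cordycepin, and Gm3696 had 0.17. Both 4930555G01Rik and Gm3696 have close copies on chromosome 14, and their probes may read several of them.

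Few of the well-known serum response genes were present. On 11 lists of such genes there were 301 genes, of which 273 were above background and 78 serum-raised, and 4 of the 78 met the rule (5.13%): Ier5, Tgfb1i1, Cxcl1 and Nfkbia. Of the 130 serum-raised genes on none of these lists, 45 met it (34.6%). Of 48 immediate early transcription regulators above background, 27 were serum-raised and Ier5 alone met the rule, with list medians of 1.03 for serum and -1.36 for cordycepin. Of 38 cytoskeletal targets of MRTF and SRF, 12 were serum-raised and Tgfb1i1 met it (medians 0.31 and -0.36). For secreted ligands and cytokines, 10 of 32 were serum-raised and Cxcl1 met it (0.18 and -0.70), and for NF-kB feedback genes 3 of 16 and Nfkbia (0.13 and -0.14). No gene of the other lists of such genes met it. Those lists held serum-raised genes too, among them 8 of 20 MAPK phosphatases and ERK feedback genes, 7 of 18 p53 and Gadd45 stress genes and 9 of 32 receptors, kinases and adaptors. No gene of the interferon-stimulated, ribosomal protein, replication-dependent histone or olfactory and vomeronasal receptor lists was serum-raised.

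Other probes of the same genes were a second reading of 15 genes. Of 19 such probes, 10 (for 9 genes) were well above background on the serum and cordycepin arrays. Of these 10, 1 met the serum threshold and 7 the cordycepin threshold. The Ier5 probe that did not meet the rule lies 2235 bases upstream of the one that did, along the direction of transcription. It read 1.19 and 1.57 without serum, 3.10, 3.66 and 2.84 with serum, and 1.32, 1.63 and 1.63 with cordycepin and serum. All serum arrays lay above those without serum, at 1.82 ± 0.25, and the cordycepin arrays lay near those without serum, at -1.67 ± 0.22, against -0.06 on the other probe.

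For Tgfb1i1, a probe of the same accession 1131 bases upstream of the one that met the rule read 3.22 and 2.97 without serum, 2.95, 2.97 and 3.26 with serum, and 2.16, 2.62 and 2.53 with cordycepin and serum. Its serum arrays did not stand apart from those without serum (-0.03 ± 0.18), and its cordycepin arrays were below both (-0.62 ± 0.16). The second probes of Fgfr4 and Ppp2r3d, 821 and 2566 bases upstream, had serum differences of -0.10 ± 0.15 and -0.10 ± 0.21, and that of Myoz3, 5214 bases upstream, 0.25 ± 0.15. Both further probes of Paqr6 were higher with cordycepin (2.39 and 1.31) with serum differences of 0.27 and 0.20. The second probes of Cpt1b, Coq10b and 4930555G01Rik had serum differences of 0.64, 0.72 and 0.76 and cordycepin differences of 1.44, -0.40 and 0.08.

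**Figure D3:**
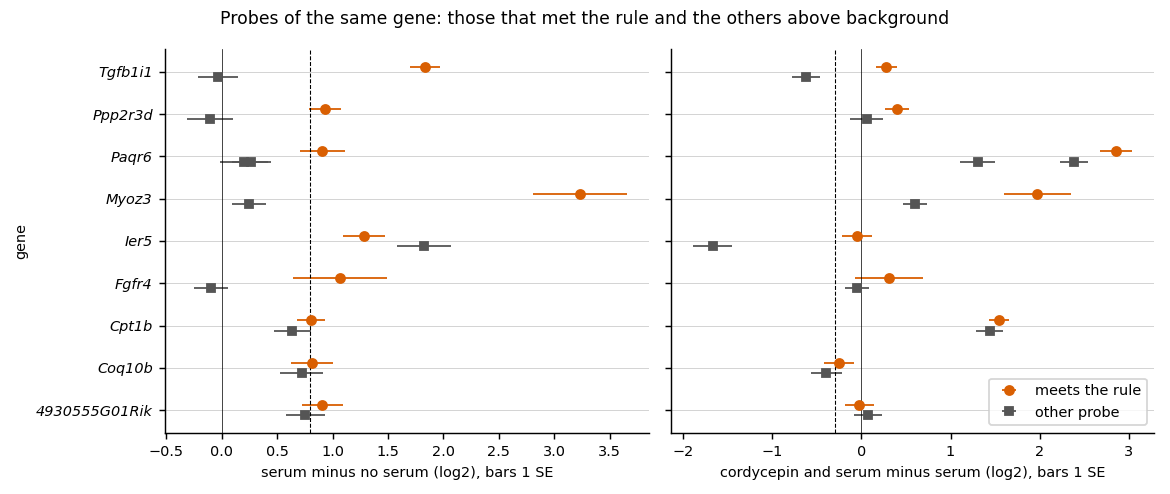
Serum minus no serum (left) and cordycepin with serum minus serum (right), in log2 with bars of 1 SE, for 9 genes with another probe above background. Orange circles are probes that met the rule and grey squares the other probes, with dashed lines at 0.8 and -0.3. The grey squares of Ier5, Tgfb1i1 and Coq10b lie below the cordycepin threshold, and of the grey squares on the left only that of Ier5 lies above the serum threshold.

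The position of the genes was not used by the rule. Of the 50 probes with a position in mm9, 16 (32.0%), for 15 genes, had a probe of another mRNA gene, well above background, within 10 kb upstream on the same strand. The share was 4.17% of the other serum-raised probes (7 of 168), 4.99% of all mRNA probes above background and 4.78% of those with a signal below 0. Downstream on the same strand it was 4.0% (2 of 50), beside 4.92% of all. Upstream on the opposite strand it was 6.0% (3 of 50), beside 2.59% of all. The genes were also short, with a median length of 8615 bases in RefSeq beside 11430 for the other serum-raised genes and 22034 for all mRNA genes above background. Among probes of genes no longer than 8615 bases the upstream share was 19.1%. It was 10.2% among probes that were over 0.3 higher with cordycepin and did not meet the rule. With windows of 5 and 20 kb the upstream share on the same strand was 7 and 25 of 50 probes, beside 1.82% and 11.5% of all. Among probes of genes no longer than 8615 bases it was 6.83% and 32.0% with these windows. Within 10 kb, probes of these short genes had shares of 9.03% downstream and 6.92% upstream on the opposite strand. The 4.0% and 6.0% of the 50 probes were not above these. These comparisons were chosen after the values were seen and carry no test.

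Most of the upstream genes differed little between serum and no serum. Their mean log2 signal with serum was 0.79 to 5.77, with a median of 3.12. In 13 of 15 pairs the upstream gene's serum difference was between -0.31 and 0.25, and in 2 it was at least 0.8. Upstream of Pnma1, at 2477 bases, lay Elmsan1, which was 1.00 ± 0.14 higher with serum and had a cordycepin difference of -2.45 ± 0.13, beside 1.54 and 0.00 for Pnma1. Upstream of Kcnk7 lay Map3k11 (0.25 ± 0.17 and -1.70 ± 0.15), and upstream of Gzmm lay Cdc34 (0.07 ± 0.11 and -0.72 ± 0.10). Upstream of Crip1, at 8374 bases, lay its relative Crip2, which was 0.10 ± 0.13 higher with serum and 0.93 ± 0.12 with cordycepin. Armc5 lay upstream of Tgfb1i1, Fis1 of Cldn15, Arpc4 of Ttll3, Slc12a4 of Lcat and Smg5 of Paqr6, all with serum differences between -0.02 and 0.12. The pair of Gm3696 was Gm3383, a close copy. The part of the upstream gene's own transcription in these values was not tested.

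**Figure D4:**
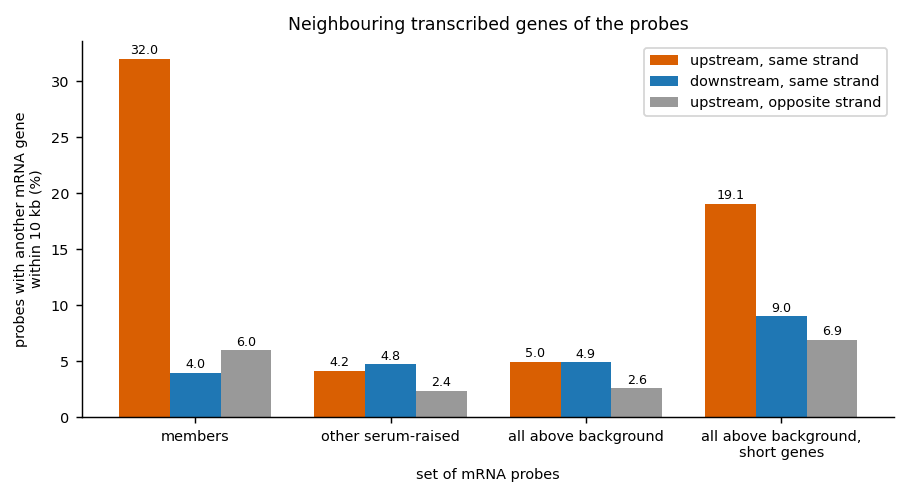
Percentage of mRNA probes with a probe of another mRNA gene, well above background, within 10 kb, for the probes that met the rule (members), the other serum-raised probes, all probes above background, and those of genes no longer than the members' median length. Orange bars are upstream on the same strand, blue bars downstream on the same strand and grey bars upstream on the opposite strand. The upstream bar of the members reaches 32.0%, and their other bars 4.0% and 6.0%.

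The promoters were compared by their letters. RefSeq start sites (250 bases before to 50 after) were found for 38 of the 49 genes, with 49 promoters. A CArG box, the site of SRF, was in 1 of the 49 (2.04%), that of Gm3696, beside 17 of 156 promoters of the other serum-raised genes (10.9%) and 1.63% of all 32851 promoters. The cyclic AMP response element TGACGTCA was in none of the 49, in 7.69% of the other serum-raised and in 1.79% of all, and an AP-1 site (TGACTCA or TGAGTCA) in 2.04%, 5.13% and 5.20%. An NF-kB site, searched as GGG, a purine, any base, A or T, a pair of pyrimidines and C, was in 8 of the 49 (16.3%), in 17.9% and in 15.3%. The GC box GGGCGG was in 40.8%, 64.1% and 35.7%, and CCAAT in 26.5%, 41.0% and 37.4%. TATAAA was in 10.2%, 14.1% and 13.6%, CACGTG in 10.2%, 11.5% and 7.15%, and CCGGAA in 14.3%, 19.2% and 14.9%. Both strands were searched, and overlapping motifs were each counted. The median number of CG dinucleotides was 8 in the 49 promoters, 21 in those of the other serum-raised genes, 20 in those of all mRNA genes above background and 7 in all promoters. Among promoters of all mRNA genes above background, the shares were 1.35% for the CArG box, 2.93% for TGACGTCA, 3.83% for the AP-1 site, 17.5% for the NF-kB site, 60.5% for GGGCGG, 37.9% for CCAAT, 7.76% for TATAAA and 9.69% for CACGTG, and CCGGAA was in 3323 of 12796. A match is a run of letters and not a measured site.

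The choice of thresholds set part of the membership. Just inside the serum threshold lay Cyp27b1 (0.80), Tgm6 (0.80) and Cpt1b (0.81), and just outside it 1190002N15Rik, Aurkc and Nrn1l (0.79, 0.78 and 0.78). Just inside the cordycepin threshold lay Ttll3, Coq10b and St8sia1 (-0.26, -0.25 and -0.23), and just outside it Siah2, Chat and Tyw5 (-0.34, -0.34 and -0.35). The SEs of these differences ran from 0.11 to 0.48, and the step from the last gene inside to the first outside was smaller at both thresholds. When each array was left out in turn, 29 of the 49 genes met the rule every time.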

How the data were processed

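Cy3-labelled RNA of 8 NIH3T3 samples was measured on Agilent mouse arrays, 1 array a sample. The deposited files hold the intensity of each spot on a linear scale, which the authors extracted with Feature Extraction 10.7.3.1 (background subtracted, spatial trend corrected). Probe positions are on mm9. The study's methods name limma and give no normalisation. From these values, the log2 of the processed signal minus the 75th percentile of the 59305 non-control spots of each array was computed, outlier spots were left out, and spots were averaged over 55681 probes. A probe was tested if all arrays of any group held it well above background, which left 30852. The test was that of limma 3.58.1 (R 4.3.3), fitted to all 8 arrays with a mean for each group and no other term. Its two-sided p-values were adjusted by Benjamini and Hochberg, and called under 0.05. The fit was tested on simulated data.

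Genes, lists and tests were chosen with earlier results of these data known. The genes named are the 15 with the largest serum difference among those above background on all 8 arrays, the 8 with the largest cordycepin difference, the 8 with the largest serum difference among those not above background on both arrays without serum, those nearest each threshold and those on a gene list, which gave 32; 16 others are named to account for the rest, and 1 gene is counted but not reported here. A gene is given by its brightest probe that met the rule. All 50 accessions matched a current RefSeq symbol (GRCm38.p6). The arrays were not treated as paired by replicate number. Deviations of same-numbered arrays from their group means correlated between -0.175 and 0.227, and those of differently numbered arrays between -0.318 and 0.322. With 2 or 3 arrays in a group these values depend on each other and cannot exclude pairing.
Alternatives were other background correction, centring and quantile normalisation, other filters and thresholds, the replicate number or slide row as a block, and leaving out each array.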

Additional observations from a re-analysis of the deposited data

How the results depend on the processing

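The count of 49 genes was 17 with normexp background correction (12.2% of serum-raised genes), 22 with centring on spike-in probes and 30 with a serum threshold of 1, and stayed within 1.5 times under every other setting that changed the rule or the values, from 37 to 73, with 37 to 49 of the 49 genes kept. Centring on the spike-in probes moved the median serum difference of all probes to -0.35. Relative to the medians of all probes for both differences, 48 genes then met the rule, 46 of them among the 49. The same step gave 14 genes with normexp, all among the 49, and 53 with quantile normalisation, 45 of them among the 49. Genes called higher with serum numbered 18 with normexp, 3 with spike-in centring, 10 with no filter on dim probes, and between 9 and 29 when 1 array was left out. With spike-in centring, 14 genes were called for cordycepin and 25 against no serum. With the replicate block, 65 genes met the rule (all 49 among them) and 27, 25 and 42 were called. Using the brightest probe of each gene, and the windows of 5 and 20 kb (7 and 25 of 50 probes), were chosen after seeing the data; the first gave 43 of 183 genes. The cause of these shifts was not tested. Of the 52 probes, 39 were well above background on both arrays without serum, beside 170 of the 173 other serum-raised probes. The serum differences of the rest of the 52 are rough.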
